A study of Mus musculus with 6 samples.

Results

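Neural and neuronal genes were examined in mouse embryonic stem cells with and without glycogen synthase kinase-3 (Gsk-3). The list held 37 genes by name. They were neural plate and progenitor transcription factors, neuronal RNA-binding proteins, adhesion molecules, Crmp/Dpysl genes, cytoskeletal genes, a fatty acid carrier and synaptotagmins. Every probe set that the platform annotation gives to exactly 1 gene of the list was taken, which made 107 of the 45101 probe sets. All 37 genes had at least 1, among 18193 genes named on the arrays. Expression was measured on Affymetrix arrays with total RNA from wild-type cells of the E14K line (3 arrays) and from cells of the genotype Gsk-3a-/-; Gsk-3b-/-, called DKO below (3 arrays). Both were grown feeder-free on gelatin with serum and ESGRO, the medium supplement that carries leukaemia inhibitory factor. No agent was added to either genotype, and no sample was labelled as differentiated. The labels do not say whether the DKO cells are 1 clone or whether replicates were separate cultures, so the spread behind each p-value is that of these arrays and may be technical, and a difference between cell lines cannot be told apart from the loss of Gsk-3.

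Embryonic stem cells can form the nervous system, and neural induction runs through neural plate factors (Sox1, Pax6), proneural factors (Neurog1, Neurog2, Neurod1) and then the genes of growing axons and synapses. Wnt signalling, which Gsk-3 restrains by marking beta-catenin for degradation, is known to oppose anterior neural fate in the early embryo. Gsk-3 is also a kinase of neuronal cytoskeletal proteins, with the Crmp/Dpysl proteins and tau (Mapt) among its textbook substrates. Arrays measure RNA, and phosphorylation was not measured here.

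Promoter sequences were shown for the members with the largest fitted differences, Crmp1 and Pax6, and for Sox11, whose 6 probe sets all passed the test. Each is a RefSeq window of 300 bases that ends shortly after a transcription start, written 5′ to 3′, with CG dinucleotides, the sites of DNA methylation in mammals, in capitals.
Crmp1 (GRCm38.p6, chr5:37241808-37242107, plus strand): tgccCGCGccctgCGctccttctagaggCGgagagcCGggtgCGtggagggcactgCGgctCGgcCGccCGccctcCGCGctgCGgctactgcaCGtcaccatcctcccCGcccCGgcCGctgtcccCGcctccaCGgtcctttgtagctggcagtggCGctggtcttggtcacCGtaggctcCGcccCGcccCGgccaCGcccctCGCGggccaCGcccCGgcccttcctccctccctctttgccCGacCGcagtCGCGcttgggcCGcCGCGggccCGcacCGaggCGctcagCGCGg
Pax6 (GRCm38.p6, chr2:105668646-105668945, plus strand): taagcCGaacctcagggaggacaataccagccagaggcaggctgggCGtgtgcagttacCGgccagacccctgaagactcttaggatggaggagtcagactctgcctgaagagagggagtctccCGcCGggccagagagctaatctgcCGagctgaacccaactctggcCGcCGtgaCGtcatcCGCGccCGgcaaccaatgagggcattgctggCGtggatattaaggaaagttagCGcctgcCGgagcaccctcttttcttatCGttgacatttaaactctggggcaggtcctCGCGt
Sox11 (GRCm38.p6, chr12:27342669-27342968, minus strand): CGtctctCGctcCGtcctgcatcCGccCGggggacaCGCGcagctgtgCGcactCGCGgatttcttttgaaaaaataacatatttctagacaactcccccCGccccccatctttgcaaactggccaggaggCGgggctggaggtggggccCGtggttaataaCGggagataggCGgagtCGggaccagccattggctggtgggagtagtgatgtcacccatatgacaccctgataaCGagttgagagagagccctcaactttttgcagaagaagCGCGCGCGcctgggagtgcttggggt
The Crmp1 window held 41 CG dinucleotides at a GC content of 77%, the Pax6 window 18 and the Sox11 window 21, where the median over all 32851 promoter windows was 7. RefSeq windows were matched for 25 of the 37 genes (32 windows, some genes having several starts), with a median of 18 CG dinucleotides. Crmp1 and Pax6 each have a second start, with 20 and 16. The Tcf/Lef core CTTTGA, searched on both strands, was in 2 of the 32 windows (Stmn3 and Syt11, 6.25%) and in 16% of all windows. The E-box CAGNTG, a site type of proneural factors, was in 14 of the 32 windows (43.8%) and in 51.4% of all windows. The CAGCACC core of the Rest site was in 2 (Gbx2 and Tubb3, 6.25%) and in 7.14% of all windows. None of these motifs contains another. Of the windows printed here, the one of Sox11 holds an E-box and those of Crmp1 and Pax6 hold none of the motifs. Methylation and factor binding are not analysed here.

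Part of the neural genes had less RNA in DKO than in wild-type cells. Of the 37 genes, 10 fell by limma, 0 rose, 15 were tested and did not pass and 12 had no tested probe set. The 10 were the transcription factors Pax6, Neurod1 and Sox11, the RNA-binding protein gene Nova1, the adhesion molecule gene Ncam1, Crmp1 and Dpysl3, the growth-cone gene Gap43, and the synaptotagmin genes Syt7 and Syt11. The test was limma with a threshold of 0.05 on the adjusted p. Among all 10496 genes tested, 2.5% fell and 1.64% rose. Testing required a log2 intensity of at least 4 on at least 3 of the 6 arrays, and each gene was read on its brightest tested probe set. Nova1, Crmp1, Dpysl4 and Gap43 came over this filter through their wild-type arrays alone and had to differ, so the counts describe the list and support nothing beyond it. Without the filter, 6 of all 37 genes fell (Pax6, Sox4, Sox11, Ncam1, Crmp1 and Fabp7), where 0.682% of all genes did. Among the 14 tested genes at a log2 intensity of 4 or more on all 6 arrays, 3 fell (Sox11, Ncam1 and Dpysl3) and 0 rose by limma, against 1.53% and 0.911% of all such genes. Counted by probe set, 17 of 39 tested fell and 1 rose, where 1.93% of all probe sets fell and 1.31% rose (3.24% together). Among those tested, a second probe set of Syt7 and a dim probe set of Sox4 also came over the filter through wild-type arrays alone. Without the filter, 10 of the 107 probe sets of the list fell, against 0.533% of all probe sets. These include a probe set of Elavl4 that was under a log2 intensity of 4 on all arrays.

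The count moved with the treatment of single arrays. The arrays of the same replicate number deviated together in both genotypes, and with the replicate number as a block 17 genes fell and 1 rose (5.63% and 5.07% of all genes). Nes, Sox4, Dpysl2, Dpysl4, Elavl3, Map2 and Tubb3 joined the falls, and the riser was Nefl. The count of falls dropped to 5 without DKO replicate 1 or wild-type replicate 2 and to 6 without DKO replicate 2. On the gene's brightest tested probe set, only Pax6, Ncam1 and Crmp1 passed in all 6 fits that each left out an array. At an unadjusted p under 0.05, 16 genes were lower and 2 higher (7.77% and 6.92% of all tested genes), and a linear model without moderation called 1 gene, Crmp1, as lower and 0 as higher.

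Over all 37 genes, whether tested or not, the median log2 difference was -0.87 (-0.46 with values under the filter raised to it), against 0 over the 18193 genes on the arrays. In 20 of the 37 genes the highest DKO array was under the lowest wild-type array, and in 2, Nefl and Nefm, the order was the opposite. Over all genes, these shares were 7.99% and 6.49%. Of the 25 tested genes these were 16 and 2, against 10.4% and 8.49% of all tested genes. In bulk RNA, fewer cells of a type and less RNA per cell cannot be told apart.

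**Figure D1:**
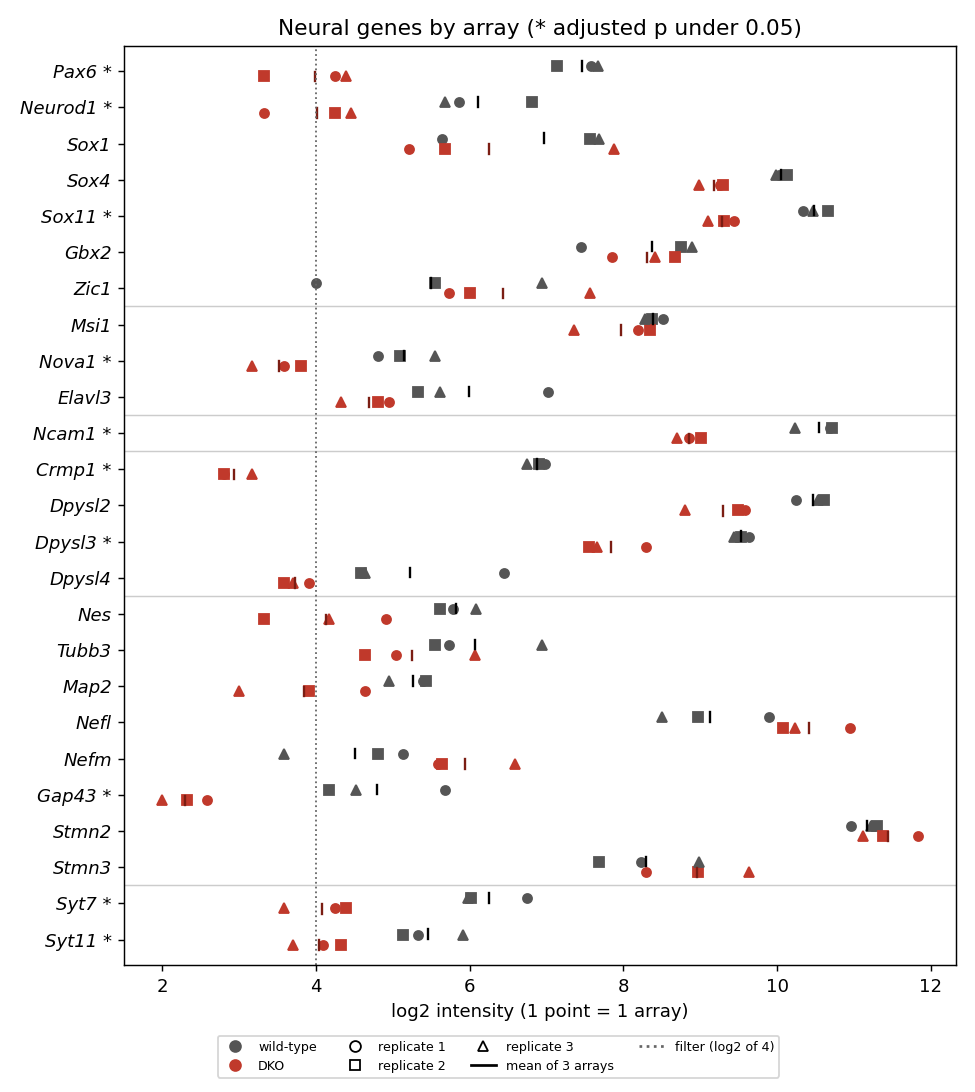
Log2 intensity (horizontal axis) of the 25 tested neural genes, with wild-type arrays in grey and DKO arrays in red; the shape of a point is the replicate number, ticks are means of 3 arrays, asterisks mark an adjusted p under 0.05 and the dotted line is the filter. The red points lie left of the grey ones for 16 genes without overlap, and right of them for Nefl and Nefm.

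Among the transcription factors, Pax6 had the largest difference. Pax6, a paired-box regulator of eye, forebrain and spinal cord progenitors, read 4.25, 3.32 and 4.39 on the DKO arrays and 7.58, 7.13 and 7.67 on the wild-type arrays (log2 intensity, replicates 1 to 3). All DKO arrays lay near the filter or under it and all wild-type arrays well above it. The difference was -3.47 (SE 0.33, n = 3 per genotype, limma adjusted p = 0.000826), with the DKO arrays around the dim end of the tested range, and it measured -3.57 over replicates 1 and 2 and -3.27 in replicate 3. Pax6 had 4 further probe sets, none of which was tested.

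Neurod1, a proneural factor of differentiating neurons, read 3.32, 4.25 and 4.46 in DKO and 5.86, 6.81 and 5.67 in wild-type cells. The arrays did not overlap, and the difference was -2.10 (SE 0.39, limma adjusted p = 0.0228). Leaving out DKO replicate 1 or 2 or wild-type replicate 2 ended the call (adjusted p up to 0.113). The proneural genes Neurog1 and Neurog2, which act upstream of Neurod1, were under a log2 intensity of 4 on all 6 arrays.

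Sox11 and Sox4 are related factors of the SoxC group, active in newly formed neurons. The brightest probe set of Sox11 read 9.44, 9.31 and 9.10 in DKO and 10.33, 10.66 and 10.46 in wild-type cells, with no overlap. Its difference was -1.20 (SE 0.23, adjusted p = 0.0254). All 6 probe sets of Sox11 were tested and all 6 passed, with differences from -2.15 to -1.20. With any 1 array left out, the brightest missed the threshold (adjusted p of 0.0521 to 0.136), whereas the probe set with the difference of -2.15 passed in all 6 (highest adjusted p = 0.032). Sox4 read 9.25, 9.30 and 8.98 against 10.03, 10.13 and 9.98, again without overlap. Its difference of -0.87 (SE 0.22) did not pass (adjusted p = 0.0877 and, with the replicate block, 0.0261). Its other tested probe sets differed by -0.93 and -0.54. The probe set at -0.54 came over the filter through its wild-type arrays alone and had to be lower.

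**Figure D2:**
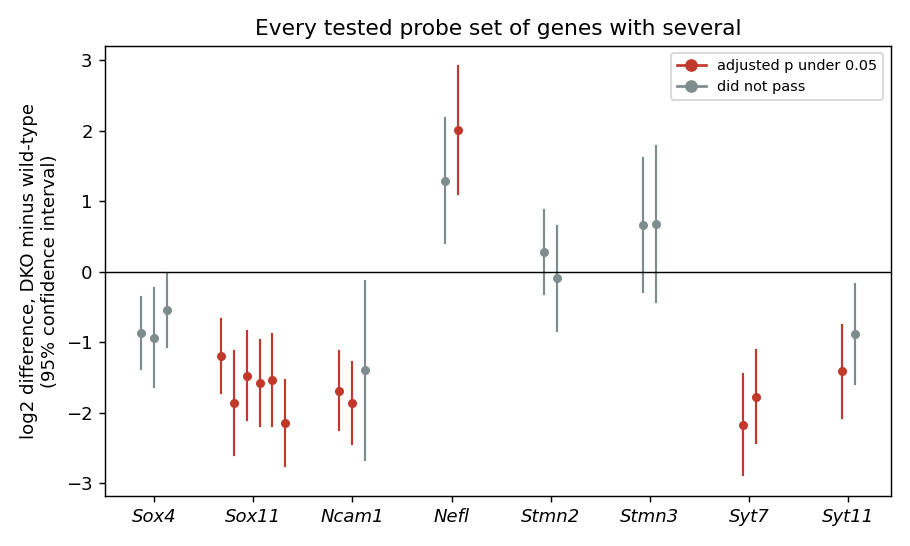
Log2 difference (DKO minus wild-type, vertical axis, bars are 95% confidence intervals from limma) of every tested probe set of the 8 genes with more than 1, ordered within a gene from the highest to the lowest wild-type mean; red marks an adjusted p under 0.05. All 6 Sox11 probe sets lie below 0 and both Nefl probe sets above it.

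Of the other neural plate and regional factors tested, Sox1, Zic1 and Gbx2 did not pass. Sox1, the earliest marker of committed neuroectoderm, read 5.21, 5.67 and 7.88 in DKO and 5.64, 7.56 and 7.68 in wild-type cells. The genotypes overlapped, and the interval of the difference ran from -2.38 to 0.96 (95%). Zic1, a zinc-finger gene of the dorsal neural plate, read 5.73, 6.0 and 7.56 against 4.0, 5.55 and 6.94, with an interval of -0.69 to 2.55. Both genes were highest on the replicate 3 array of each genotype. Gbx2, a homeobox gene of the hindbrain that stem cells also express, differed by -0.06 (interval -0.98 to 0.87), a difference whose sign changed with the arrays used. Pax3, Hes5, Olig2 and Six3, genes of the dorsal neural tube, Notch response, motor neuron progenitors and forebrain, stayed under a log2 intensity of 4 on all 6 arrays.

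Neural RNA-binding protein genes were lower or did not pass. Nova1, a splicing regulator of neurons, read 3.58, 3.81 and 3.17 in DKO and 4.81, 5.09 and 5.55 in wild-type cells. The DKO arrays were all under the filter, so the level was at least 2.22-fold lower (difference -1.63, SE 0.29, adjusted p = 0.0169). Leaving out DKO replicate 1 or 3 or wild-type replicate 2 ended this call (adjusted p up to 0.0889). Elavl3, which encodes the neuronal protein HuC, differed by -1.29 without overlap (adjusted p = 0.199; 0.0208 with the replicate block). Its wild-type replicate 1 array stood highest at 7.02, and the other wild-type arrays read 5.32 and 5.61. Msi1, an RNA-binding protein of neural stem cells, read 8.19, 8.34 and 7.36 against 8.51, 8.38 and 8.28 (interval -1.10 to 0.25). Elavl4 was not tested; its DKO arrays read 3.32, 3.46 and 2.00 and its wild-type arrays 4.86, 4.52 and 3.70.

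The adhesion molecule gene Ncam1, which encodes a homophilic cell surface protein of neural tissue, fell. Its brightest probe set read 8.85, 9.01 and 8.70 in DKO and 10.69, 10.71 and 10.23 in wild-type cells, with no overlap. The difference was -1.69 (SE 0.25, adjusted p = 0.00665), a 3.22-fold lower level. A second bright probe set differed by -1.86 (adjusted p = 0.00504). The remaining tested probe set, a dim one whose arrays overlapped, differed by -1.40 and did not pass (adjusted p = 0.315; 0.00578 with the replicate block). Nrcam, a cell adhesion molecule of axons, was not tested, with 4.17 as its highest log2 intensity on any array.

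The list held 4 genes of the Crmp/Dpysl family, whose cytosolic proteins bind tubulin and steer axon growth. All 4 had DKO arrays below all wild-type arrays, and 2 of them fell. Over all tested genes these shares were 10.4% and 2.5%. Crmp1 and Dpysl4 came over the filter through their wild-type arrays alone, so they had to be lower without overlap. Dpysl5, a family member outside the list, was among the further genes below and was not called lower. Crmp1 read 2.81, 2.81 and 3.17 in DKO and 6.98, 6.89 and 6.74 in wild-type cells. The DKO arrays were at the dim end of the scale and the wild-type arrays close together, so the level was at least 7.32-fold lower (difference -3.94, SE 0.23, limma adjusted p = 8.71e-05). It has 1 probe set, and the call held in all 6 fits that left out an array. Dpysl3 (Crmp4) read 8.30, 7.55 and 7.65 against 9.63, 9.53 and 9.44, a difference of -1.70 (SE 0.27, adjusted p = 0.0102). Leaving out replicate 2 of either genotype ended its call (adjusted p up to 0.0525). Dpysl2 (Crmp2) read 9.58, 9.50 and 8.80 against 10.25, 10.61 and 10.53. The difference of -1.17 (SE 0.28) missed the threshold (adjusted p = 0.0636; 0.0154 with the replicate block and 0.0309 with replicate 3 of both genotypes set apart as a block). Dpysl4 (Crmp3) differed by -1.49 (adjusted p = 0.163; 0.0153 with the replicate block), and wild-type replicate 1 at 6.44 stood above the other wild-type arrays at 4.58 and 4.64.

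**Figure D3:**
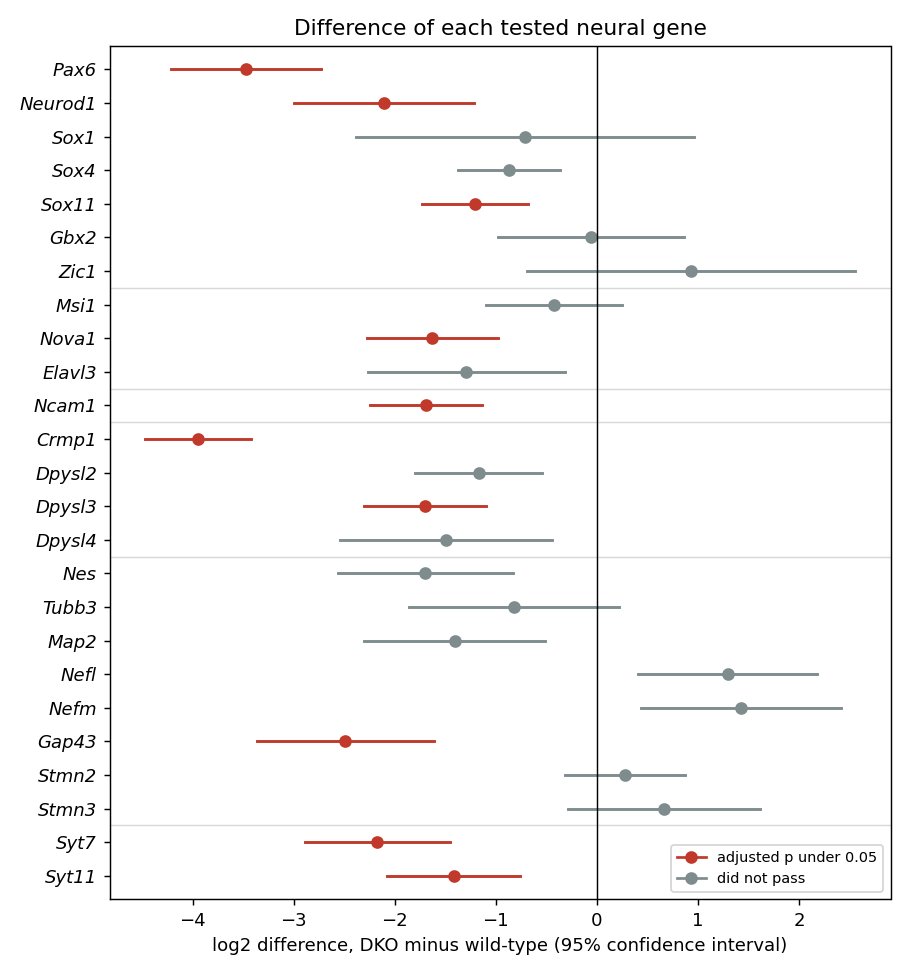
Fitted log2 difference (horizontal axis, DKO minus wild-type) of the 25 tested neural genes with 95% confidence intervals from limma, in the order of their roles; red marks an adjusted p under 0.05. Crmp1 at -3.94 and Pax6 at -3.47 lie farthest below 0, and Nefl and Nefm have intervals above 0 without passing the adjusted threshold.

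The cytoskeletal genes split in direction. Gap43, a membrane protein of axonal growth cones, read 2.58, 2.32 and 2.00 in DKO and 5.67, 4.17 and 4.52 in wild-type cells. It was at least 1.73-fold lower (fitted difference -2.49, SE 0.39, adjusted p = 0.00968), and the call was lost without DKO replicate 1 (adjusted p = 0.0652). Nes, the intermediate filament nestin of neural progenitors, read 4.91, 3.32 and 4.17 against 5.78, 5.61 and 6.09 without overlap. Its difference of -1.69 (SE 0.38) lay just over the threshold (adjusted p = 0.0518; 0.00446 with the replicate block and 0.0364 with replicate 3 set apart). Map2, a dendritic microtubule protein, differed by -1.41 without overlap (adjusted p = 0.119; 0.00779 with the replicate block and 0.0223 with replicate 3 set apart). Tubb3, the neuronal beta-tubulin, read 5.04, 4.64 and 6.07 against 5.73, 5.55 and 6.94. The genotypes overlapped, yet each DKO array lay below the wild-type array of the same number, by 0.68, 0.91 and 0.88, and the adjusted p was 0.541 without and 0.0329 with the replicate block.

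The neurofilament genes Nefl and Nefm, neighbours on chromosome 14, had higher levels on every DKO array than on any wild-type array, though neither passed on its brightest probe set. Nefl, the light chain, read 10.95, 10.08 and 10.23 in DKO and 9.90, 8.97 and 8.50 in wild-type cells on its brightest probe set. The difference, 1.29 (SE 0.39), missed the threshold (adjusted p = 0.149; 0.00578 with the replicate block). The second probe set of Nefl rose by 2.01 on the log2 scale (SE 0.40, adjusted p = 0.0297), from 6.51, 5.55 and 5.70 to 8.64, 7.21 and 7.94. Leaving out DKO replicate 1 or 3, or wild-type replicate 2 or 3, ended that call (adjusted p up to 0.138). Nefm, the medium chain, read 5.58, 5.64 and 6.58 against 5.13, 4.81 and 3.58, a difference of 1.43 (SE 0.44) that did not pass (adjusted p = 0.155; 0.0614 with the replicate block). Its difference was 0.65 over replicates 1 and 2 and 3.00 in replicate 3. Ina, which encodes the neurofilament partner alpha-internexin and is no member of the list, fell from 10.45, 10.58 and 10.38 to 6.93, 7.84 and 7.04 (difference -3.20, SE 0.29, adjusted p = 0.000702).

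The stathmin genes, whose proteins destabilise microtubules, did not pass. The brightest probe set of Stmn2 read 11.83, 11.38 and 11.12 in DKO and 10.96, 11.30 and 11.23 in wild-type cells, with an interval of the difference from -0.32 to 0.87. Its other tested probe set differed by -0.09, so the 2 had opposite signs. Stmn3 differed by 0.66 (interval -0.29 to 1.62), and its second probe set by 0.67. Doublecortin (Dcx), a microtubule protein of migrating neurons, was under a log2 intensity of 4 on all arrays and all its 4 probe sets. Mapt reached 4.58 and 4.64 on the replicate 3 array of DKO and wild-type cells, and read between 3.00 and 3.32 on the others.

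Of the synaptotagmins, calcium sensors and adaptors of vesicle fusion, 2 of the 3 listed fell and Syt1 was not tested. Among all genes tested, 2.5% fell. Syt7 read 4.25, 4.39 and 3.58 in DKO and 6.74, 6.02 and 5.98 in wild-type cells, a difference of -2.17 (SE 0.32, adjusted p = 0.00675). Its second tested probe set fell as well, by 1.77 on the log2 scale (adjusted p = 0.0125). That probe set came over the filter through its wild-type arrays alone and had to be lower, so it adds no support. Without the filter its limma adjusted p was 0.094. The first call was lost without DKO replicate 1 (adjusted p = 0.0505) and the second without wild-type replicate 2 (adjusted p = 0.0635). Syt11 read 4.09, 4.32 and 3.70 against 5.32, 5.13 and 5.91 (difference -1.42, SE 0.29, adjusted p = 0.0337). With any 1 array left out it missed the threshold (adjusted p of 0.0622 to 0.135), and its other tested probe set differed by -0.89 (adjusted p = 0.236). Syt1, the calcium sensor of fast transmitter release, was under a log2 intensity of 4 on all arrays. Fabp7, the brain fatty acid carrier of radial glia, was not tested: its DKO arrays read 2.00, 1.58 and 1.58 and its wild-type arrays 3.81, 4.09 and 4.58, at least 1.12-fold lower in DKO.

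The replicate 3 array of each genotype differed from the rest in its controls. Their 9 bacterial and phage spike-in probe sets had mean log2 intensities of 9.50 and 9.91, and those of the other 4 arrays between 1.73 and 1.85, and no label names a batch. With replicate 3 against replicates 1 and 2 as a block, called the spike-in block here, 14 of the neural genes fell by limma (3.79% of all genes, where 2.75% rose); Sox4, Dpysl2, Nes and Map2 were the additions. Within replicates 1 and 2 alone, 6 fell (Crmp1, Pax6, Ncam1, Syt7, Neurod1 and Gap43; 1.68% of all genes, where 1.14% rose). Of the 25 tested genes, 19 had a difference below 0 over replicates 1 and 2 and 20 in replicate 3. Over all arrays, 50.3% of all tested genes were below 0. The 25 include the genes that came over the filter through wild-type arrays alone and had to be lower. For 3 control transcripts, the log2 signal near the 3′ end minus that near the 5′ end, which grows as RNA is broken, was 2.32, 2.44 and 1.83 in DKO and 2.30, 2.00 and 1.64 in wild-type cells. It was higher in DKO in each same-numbered pair, but in 1 of 3 pairs with pyruvate carboxylase included, and its part in these results was not tested.

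**Figure D4:**
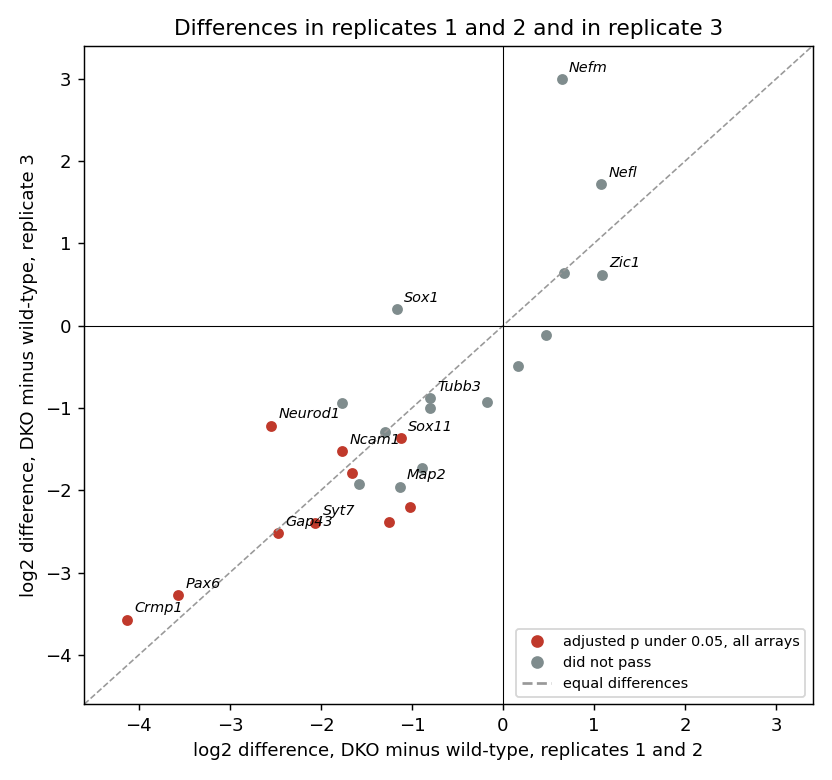
Log2 difference (DKO minus wild-type) over replicates 1 and 2 (horizontal axis) and in replicate 3 (vertical axis) for the 25 tested neural genes; red marks an adjusted p under 0.05 in the fit of all arrays and the dashed line equal differences. All red points lie below 0 on both axes, Nefm at 0.65 and 3.00 lies far from the line and Sox1, Gbx2 and Stmn2 change sign.

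Further neural genes were read from lists beyond the 37. Over all genes tested, limma called 2.5% lower and 1.64% higher (7.77% and 6.92% at an unadjusted p under 0.05). Among other neural transcription factors, 59 of 65 written were on the arrays, 23 were tested, 3 fell and 2 rose. Otx2, an anterior head gene also expressed in epiblast, differed by -3.80 on the log2 scale and the POU factor gene Pou3f1 by -3.12. Pou3f2 was at least 1.94-fold higher and Irx2 rose by 1.62, and Meis1, named after its values were seen, fell by 1.14. Of 21 other neuronal cytoskeleton genes tested, Ina and the ankyrin gene Ank2 (difference -1.68) fell and limma called 0 higher. At an unadjusted p under 0.05, 5 were lower and 3 higher. Of 19 other adhesion and guidance genes tested, Sema3e (-3.10) and Efnb2 (-2.39) fell and the guidance cue Ntn1 rose by 2.01. Of 18 other synaptic vesicle genes tested, 4 fell and limma called 0 higher (at an unadjusted p under 0.05, 7 lower and 0 higher). Syt13 was at least 2.21-fold lower, Syt4 at least 1.59-fold, Sv2a at least 1.59-fold and Cplx1 at least 1.26-fold. These 4 came over the filter through their wild-type arrays alone and Pou3f2 through its DKO arrays alone. They had to differ, so the counts describe the lists and support nothing beyond them. With single arrays left out, Irx2, Pou3f2, Meis1, Ank2, Syt4, Sv2a and Cplx1 each lost their call in 2 or more of 6 fits. Their highest adjusted p-values were 0.0775, 0.0839, 0.127, 0.163, 0.0686, 0.152 and 0.127.

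Tested genes of the Notch pathway, the Rest complex and the other neural RNA-binding list did not pass by limma. Of 23 tested genes of the Notch pathway, which holds neural progenitors back from differentiation, limma called 0 (at an unadjusted p under 0.05, 6 lower and 1 higher; without moderation 0; with the replicate block 3 lower and 1 higher). Of 14 tested genes of the Rest complex, the repressor of neuronal genes in other cells, limma called 0, also at an unadjusted p under 0.05 and without moderation. Rest itself read 11.62, 11.73 and 11.16 in DKO and 11.57, 11.95 and 11.72 in wild-type cells. Of 13 other neural RNA-binding genes tested, limma called 0 (unadjusted 0 lower and 1 higher; without moderation 0; with the replicate block 0 lower and 1 higher). The median differences of these lists over the genes tested were -0.43, -0.02 and -0.14.

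Markers of cell types were set beside these values. All 10 stem cell markers were tested and limma called 0 (0 also at an unadjusted p under 0.05 and without moderation), with summed intensities of 24656 to 26679 in DKO and 24932 to 26647 in wild-type cells. Of 16 markers of neural progenitors and neurons, 4 were under a log2 intensity of 4 on all arrays (Olig2, Neurog1, Neurog2 and Dcx). Of the 10 tested, Pax6 and Neurod1 fell (5 lower and 2 higher at an unadjusted p under 0.05; 6 lower and 1 higher with the replicate block), and the median difference was -1.06. The summed intensity of all 16 was 3929 to 5871 in DKO and 3549 to 3723 in wild-type cells, most of it from Stmn2 and Nefl. Without these 2, the other 8 tested markers summed to 208 to 488 in DKO and 614 to 742 in wild-type cells, a split made after the values were seen. Neural crest markers summed to 1549 to 1908 in DKO and 802 to 939 in wild-type cells. Of 7 tested, the crest and ectoderm factor Tfap2a rose by 3.46, and Sox10, Tfap2b and Pax3 were under a log2 intensity of 4 on all arrays. Primitive streak and mesoderm markers summed to 445 to 703 against 194 to 295, with 3 of 11 tested and 0 called by limma (3 higher at an unadjusted p under 0.05, 0 without moderation). Astrocyte and oligodendrocyte markers summed to 1631 to 2438 against 870 to 1817; of 5 tested, Aldh1l1 rose by 1.84, while Gfap, S100b, Aqp4 and Sox10 were under a log2 intensity of 4 on all arrays. Endoderm markers summed to 2145 to 3968 against 1052 to 3920 (8 tested, 0 called by limma, 1 lower and 1 higher at an unadjusted p under 0.05) and fibroblast markers to 1082 to 1913 against 1524 to 1746, of which Tagln differed by -3.64 and passed. The part of such cells in the neural gene differences was not tested.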

How the data were processed

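The data are 6 Affymetrix arrays, 3 DKO and 3 wild-type, assigned to genotype and replicate by sample title. For each array the authors deposited a whole-number intensity of every probe set. No source states the scale; values of 1 to 12861 were read as linear. GCOS and, under R 2.8.0, the packages limma 2.16.5 and GCRMA 2.14.1 are listed per the submitters' processing notes, with no roles or order. No build of the genome is named. Median intensity was 10 or 11 on each array; the number of arrays limits the precision. Rounding makes low values coarse.

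Log2 values were taken without a pseudocount. Probe sets at log2 of at least 4 on at least 3 arrays (20841) were compared by limma 3.58.1 in R 4.3.3 (lmFit, eBayes, two-sided) with Benjamini-Hochberg adjustment over all of them. SE is the moderated standard error. "At least" folds compare the bright group's mean with, per dim array, the higher of 4 and its value. Genes were named through the platform annotation. All 37 neural genes were named, each read on its brightest tested probe set, with up to 4 passing genes of each further list. The members and lists were chosen with earlier results of these data known.

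After subtracting genotype means, arrays sharing a replicate number correlated with r of 0.427, 0.354 and 0.595 across probe sets. Each was over 0.1, so the numbers were taken to pair the samples. Pairs of unlike numbers had r of -0.488 to 0.113, the highest being DKO replicate 2 with wild-type replicate 1, also over 0.1. The meaning of a number is unlabelled. No 2 arrays were alike: at most 1.79% of tested probe sets had the same value on both. The procedure was tested on simulated data. Alternatives changed the filter, pseudocount, scaling, blocks, arrays, variance model and probe set choice.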

Additional observations from a re-analysis of the deposited data

How the results depend on the processing

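The fall of Crmp1 kept its direction and its call under all 18 alternatives that could be fitted for it. Crmp1 came over the filter through its wild-type arrays alone, so its direction was set beforehand in each fit that used a filter. Without the filter its limma adjusted p was 0.00608. The falls of Pax6 and Ncam1 kept direction and call under all but the linear model without moderation. The neural genes that fell numbered 10 and were 6 without a filter, 5 with a filter at log2 of 6, 6 with a filter on the mean over all arrays (log2 of at least 5, chosen after seeing the data), 17 with the replicate block, 6 over replicates 1 and 2 only, 1 in the linear model without moderation, and 5 to 8 with 1 array left out at a time. Those that rose numbered 0, and 1 with the replicate block, 1 with the mean over a gene's probe sets (Nefl in both) and 0 to 1 with an array left out (1 without wild-type replicate 1). Over the whole table, 675 probe sets and 434 genes passed; these were 373 and 253 with the filter at 6, 369 and 247 with the filter on the mean, 1995 and 1123 with the replicate block, 1117 and 687 with replicate 3 set apart as a block, 31 and 22 without moderation, 290 to 604 and 184 to 374 leaving out an array; 440 probe sets passed over replicates 1 and 2 and 247 genes without a filter. Fewer tested probe sets are part of the filters' construction; the cause of the other changes was not tested. The difference of Gbx2 changed sign to 0.16 over replicates 1 and 2 and to 0.012 with array weights, and ran from -0.51 to 0.21 with an array left out (0.17 lacking DKO replicate 1, 0.14 lacking wild-type replicate 2). No other neural gene changed sign. Intensities near the filter limit the dim members. Folds are lower limits only where all arrays of the dim genotype were under the filter. Where only some were, the difference is given as fitted. With values under the filter raised to it, the difference of Map2 went from -1.41 to -1.04 and that of Neurod1 from -2.10 to -1.88.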

Other observations

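The protein-coding genes next to Nefl and Nefm on chromosome 14 were read after the values of that pair were seen. In the RefSeq order, Cdca2, Kctd9 and Dock5 lie on the Nefl side and were tested, with log2 differences of -0.01, -0.48 and -0.08, none of which passed by limma. Adam7, Adamdec1 and Adam28 lie on the Nefm side and were under a log2 intensity of 4 on all 6 arrays. Among the neurofilament genes outside the pair, the heavy chain Nefh, named after its values were seen, read 7.20, 7.55 and 9.01 in DKO and 8.23, 8.67 and 9.63 in wild-type cells. Its difference of -0.93 did not pass (adjusted p = 0.531; 0.0239 with the replicate block), and it was highest on the replicate 3 array of both genotypes.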
